A study of Mus musculus with 12 samples.

Results

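The genes described here encode the selenoproteins Selenow, Selenoh, Selenoo and Selenov and the enzymes that repair oxidised methionine (Msrb1, Msrb2, Msrb3 and Msra). All 8 genes named for this group were found by symbol among the 18193 genes tested, through the 10 probe sets annotated to 1 of them alone. Selenow and Msrb3 have 2 probe sets each and the other genes 1 each. For each gene the brightest probe set over the 6 arrays of a comparison was tested, and the others are given beside it.

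The study lowered or removed selenophosphate synthetase 1 (SPS1, gene Sephs1), a homolog of the enzyme that makes the selenium donor for selenocysteine. Livers came from 3 control and 3 knockout male C57BL/6 mice at 3 months of age. The knockout was made with Cre driven by the albumin promoter (Alb-Cre), which acts in hepatocytes, so other liver cells keep the gene, and the labels do not give the genotype of the controls. F9 is a male mouse embryonal carcinoma line of strain 129, derived from a testicular teratoma, and was measured in 3 controls and in 3 samples carrying a Sephs1 shRNA (shSPS1). Every array was labelled from 100 ng of total RNA, and all values are log2 expression values as deposited. Liver and F9 tables were normalized separately, so each comparison was made within its own tissue. The labels call the samples biological replicates without saying whether those of F9 were separate cultures, so the spread behind each p-value there may be technical.

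Selenoproteins carry selenocysteine, the selenium analog of cysteine, which is inserted at a UGA codon with the help of a hairpin in the messenger RNA. When selenium is scarce, cells give up some selenoproteins sooner than others, and the messenger RNAs of Selenow, Selenoh, Msrb1 and Gpx1 are known as the sensitive, stress-related ones. Methionine oxidation gives a pair of mirror forms of methionine sulfoxide. Msra reduces the S form, the MsrB enzymes reduce the R form, and thioredoxin restores the used enzymes. Msrb1 is the selenoprotein of that family, while Msrb2, Msrb3 and Msra use cysteine.

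Sephs1 itself fell in the F9 cells, from 10.003 ± 0.055 (SD, n = 3) to 7.80 ± 0.04 (SD, n = 3; -2.20, SE 0.07, adjusted p = 1.28e-05, limma). In the livers labelled knockout it was not lower (9.84 ± 0.10 and 10.03 ± 0.13, SD, n = 3 each; 0.19, SE 0.14, adjusted p = 0.789), and the deleted stretch of the gene is not stated, so whether these probes lie in it is unknown. The other Sephs1 probe sets, 1433974_at, 1433973_at and 1455511_at, differed by 0.39, 0.20 and 0.47 in liver, without passing. In F9 they differed by -1.99, -1.94 and -0.93. Hepatocyte markers were bright in liver and the pluripotency markers were bright in F9, with mean levels of 15.01 to 15.60 and of 12.66 to 12.96 per array. The mean level of the hepatocyte list on the F9 arrays was 4.72 to 5.02. The median SD within groups was 0.326 for liver and 0.108 for F9. On a linear scale the trimmed mean was 499.9998 to 500.0002 for the liver arrays and 269.7 to 275.6 for the F9 arrays. The part of processing in the unlike spreads, and in the number of genes passing per tissue, was not tested. Spiked-in hybridisation controls differed by 0.66 between knockout and control livers and by -0.19 between knockdown and control F9 samples. Poly-A controls differed by -0.46 in liver and by -1.003 in F9. Per array, the liver hybridisation controls read 12.12 to 12.53 in control and 12.91 to 12.96 in knockout livers, without overlap. The F9 poly-A controls read 7.56 to 8.09 in control and 6.19 to 7.35 in knockdown samples, also without overlap. The ranges of the liver poly-A and F9 hybridisation controls overlapped. The part of these spiked-in differences in the results was not tested.

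The promoter of Selenow is shown because, by the brightest probe sets, only Selenow had control and treated arrays without overlap in both tissues. The second Selenow probe set overlapped in liver. RefSeq promoters of the assembly GRCm38.p6 were found for 7 of the 8 genes, all except Msra. The 250 bases before the annotated start of Selenow lie at chr7:15922372-15922621 on the minus strand. The capitals mark a word of 17 bases that occurs in 2 copies, 1 base apart, at positions -165 to -149 and -147 to -131.
Selenow, 250 bases before the start: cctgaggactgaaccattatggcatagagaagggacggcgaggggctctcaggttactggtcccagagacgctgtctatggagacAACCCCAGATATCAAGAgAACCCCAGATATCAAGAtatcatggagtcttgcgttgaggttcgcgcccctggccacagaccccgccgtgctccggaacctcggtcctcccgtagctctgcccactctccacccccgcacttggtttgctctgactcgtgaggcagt
An exact repeat at least as long was found before the start in 551 of 32851 RefSeq promoters (1.68%). In the 6 other promoters of the group the longest repeated word had 7 to 9 bases, and 34.9% to 94% of all promoters hold one as long. The repeat was noticed after the sequence had been read.

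Promoters of 300 bases (250 before the start and 50 from it) were also searched on both strands for the antioxidant response element TGACNNNGC and for the metal response element cores TGCGCNC and TGCACNC. The element TGCGCNC was found just after the start of Selenow, where a palindrome gives overlapping matches on both strands at positions 6 to 13, and in 15.4% of all promoters. The 30 bases from that start lie at chr7:15922342-15922371 on the minus strand, with the matches in capitals. In Msrb2, TGACNNNGC was found on the opposite strand at positions 40 to 48 after the start, and in 12.4% of all promoters. Its 30 bases lie at chr2:19371656-19371685 on the plus strand.
Selenow, bases 1 to 30: cggctGTGCGCACggccccacgctcagagc
Msrb2, bases 21 to 50: gggaggaaacccgttggtgGCAGCGTCAtg
The promoters of Selenoh, Selenoo, Selenov, Msrb1 and Msrb3 held 0 matches to the 3 motifs, and TGCACNC was found in 0 of the 7 promoters against 12.6% of all. A match is a stretch of letters and not a measured binding site.

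The F9 comparison asks which of these transcripts differ when an shRNA lowers Sephs1. Selenow fell to 55% of its control level, and it was the 1 gene of the 8 that passed the test over all genes, as 7.2% of all genes did in either direction. In the lower direction that is 1 of 8 against 4.64% of all genes, and in the higher direction 0 of 8 against 2.56%. Selenow encodes a small thioredoxin-fold selenoprotein that is abundant in muscle and brain. In its brightest probe set the control arrays read 9.09, 8.94 and 8.93 and the knockdown arrays 8.14, 8.01 and 8.21. Every knockdown array lay below every control array. The difference was -0.86 (SE 0.08, 95% interval -1.05 to -0.67, adjusted p = 0.00095, limma), a 1.82-fold decrease with an interval of 1.59 to 2.07.

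The second Selenow probe set read 5.94, 6.24 and 6.12 in control and 5.66, 5.87 and 5.73 in knockdown cells. These groups did not overlap either. The difference was smaller, at -0.35 (SE 0.10), and did not pass when adjusted over all probe sets (adjusted p = 0.097, limma). The brightest probe set, 1460561_x_at, carries the suffix with which Affymetrix marks probes that can also match other sequences, while the second, 1416521_at, does not. Which of the probe sets measures the change more closely was not tested. With the mean of both, the difference was -0.61 and the gene still passed (adjusted p = 0.00091).

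**Figure D1:**
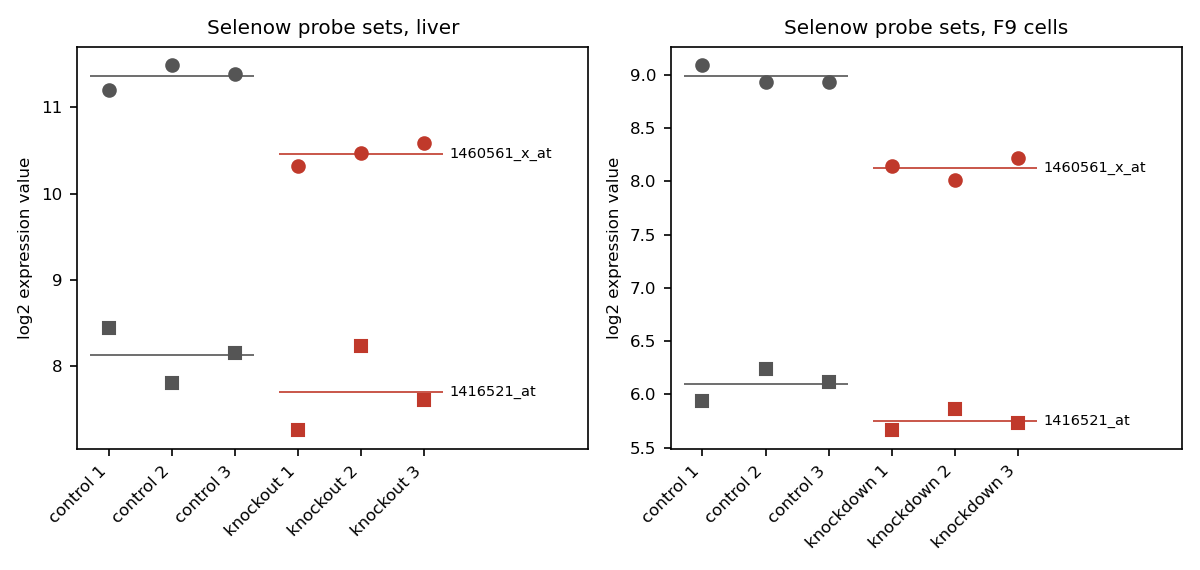
Log2 expression values (vertical axis) of both Selenow probe sets on each liver array (left) and each F9 array (right), with control arrays in grey, treated arrays in red, circles for 1460561_x_at, squares for 1416521_at and lines at the group means. The circles of the treated arrays sit below all controls in both tissues, the squares do so in F9 only, and in liver knockout array 2 (8.23) lies above control arrays 2 and 3.

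Selenoh encodes a nucleolar, DNA-binding selenoprotein with a thioredoxin fold. It read 12.03, 12.17 and 12.25 in control and 11.76, 11.89 and 11.86 in knockdown cells, with no overlap between the groups. The difference of -0.32 (SE 0.08, interval -0.50 to -0.13) missed the threshold over all genes (adjusted p = 0.055, limma). It passed in 7 of 15 other settings, among them without F9 control array 1 (-0.37, adjusted p = 0.023), and over all of them the adjusted p ranged from 0.0086 to 0.173.

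Msrb2, the mitochondrial methionine-R-sulfoxide reductase, differed the other way. Its control arrays read 7.89, 7.93 and 7.97, and its knockdown arrays 8.20, 8.15 and 8.17. The groups were each narrow and did not overlap, with a difference of 0.25 (SE 0.06, interval 0.10 to 0.39) that also missed the threshold (adjusted p = 0.057, limma; 0.0136 to 0.168 over the other settings). It passed in 7 of 15 of them. Selenow, Selenoh and Msrb2 were thus the 3 of 8 genes whose F9 groups did not overlap, as in 27.9% of all genes. Of these, 2 were lower (15.7% of all genes) and 1 was higher (12.2%), and 2 of the 8 were lower at an unadjusted p under 0.05 (12% of all genes), or 3 in either direction (20.9%).

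The remaining methionine sulfoxide reductases gave overlapping F9 groups. Msrb1, the selenoprotein that reverses the oxidation of actin methionines, read 7.97, 8.15 and 8.27 in control and 7.95, 8.13 and 7.997 in knockdown cells (-0.10, SE 0.09, interval -0.32 to 0.12, adjusted p = 0.624). Msra read 6.22, 6.28 and 5.97 in control and 5.96, 6.27 and 6.03 in knockdown cells (-0.07, SE 0.11, interval -0.33 to 0.19, adjusted p = 0.799). Their intervals leave room for a decrease of up to 1.25 and 1.26-fold. Msrb3, which in mice encodes an enzyme of the endoplasmic reticulum, was dim. Its brighter probe set read 4.63, 4.93 and 5.07 in control and 4.51, 4.75 and 4.64 in knockdown cells (-0.24, SE 0.12, adjusted p = 0.313), and its second probe set differed by 0.03.

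Selenoo, a mitochondrial pseudokinase that attaches AMP to proteins, read 7.13, 6.96 and 7.05 in control and 7.21, 6.98 and 7.06 in knockdown cells. The difference was 0.04 (SE 0.08, interval -0.15 to 0.23, adjusted p = 0.855). Selenov, a testis-enriched relative of Selenow, read 5.41, 5.40 and 5.35 in control and 5.39, 5.46 and 5.53 in knockdown cells (0.07, SE 0.07, adjusted p = 0.630). Both genes had overlapping groups. In F9, Selenov, Msrb3 and Msra lay among the dimmer 50% of genes, and the files hold no calls of which probe sets were detected. Of the 8 genes, 3 had positive (46.8% of all genes) and 5 negative differences, with a median of -0.09 against -0.01 over all genes.

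**Figure D2:**
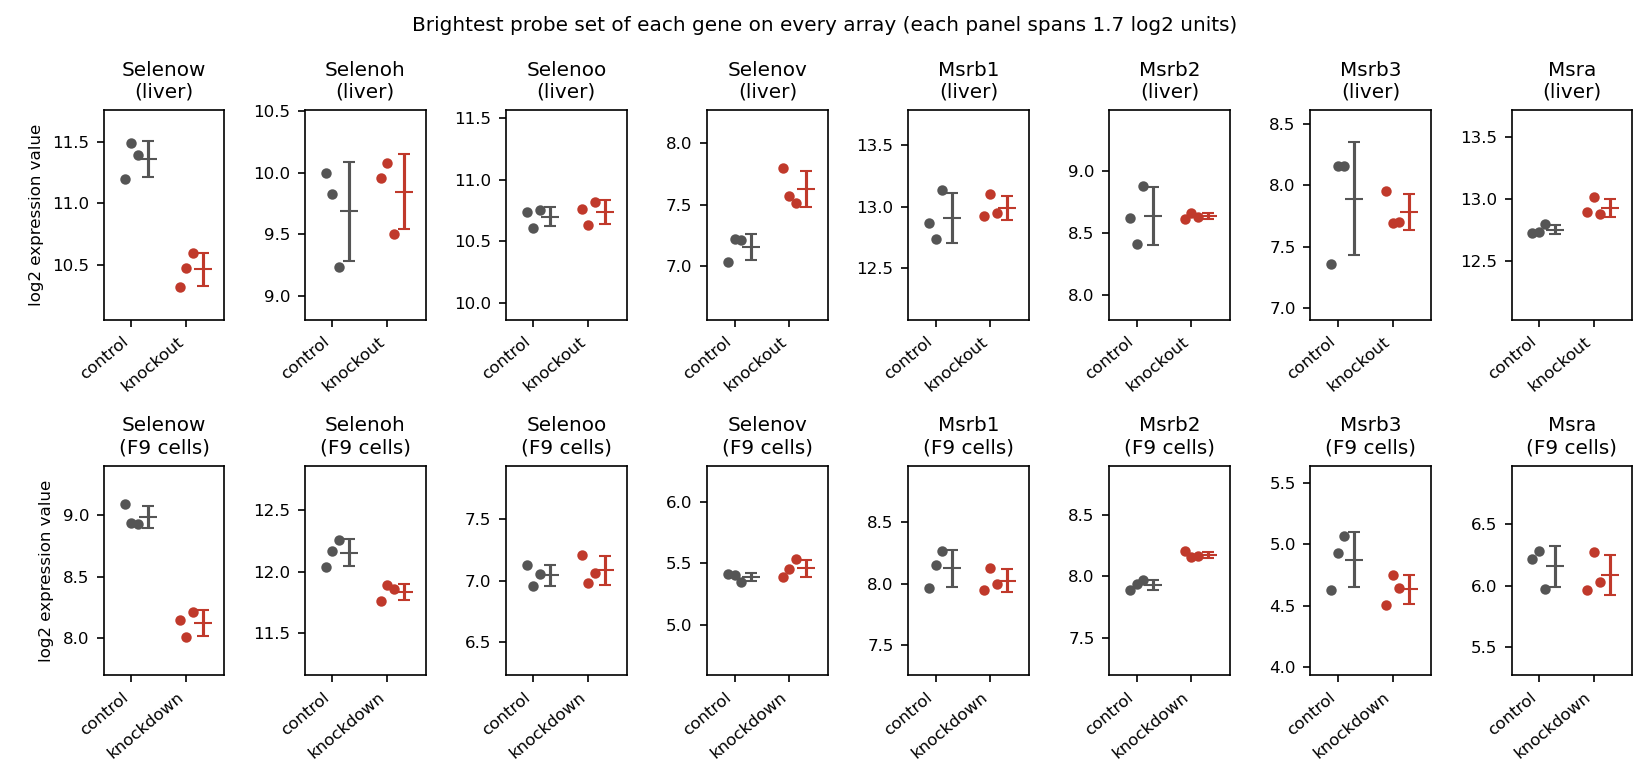
Log2 expression value (vertical axis, each panel spanning the same range) of the brightest probe set of each gene on each liver array (upper row) and each F9 array (lower row), with grey for control, red for knockout or knockdown, and bars for the mean ± SD (n = 3). Groups without overlap are seen for Selenow in both rows, for Selenov and Msra in the upper row, and for Selenoh and Msrb2 in the lower row.

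The liver comparison asks the same of livers labelled as lacking Sephs1 in hepatocytes. None of the 8 genes passed over all genes, as 0.044% of all genes did (limma; 0 lower against 0.033%, 0 higher against 0.011%). At an unadjusted p under 0.05 there were 2 of 8 (7.28% of all genes), of which 1 was lower (3.2%). Selenow had the smallest p of the group. Its control livers read 11.20, 11.49 and 11.39 and its knockout livers 10.32, 10.47 and 10.59, so that all 3 knockout livers lay below all controls. The difference was -0.90 (SE 0.15, interval -1.27 to -0.53, adjusted p = 0.235, limma), which is 53.7% of the control level. It passed with an intensity trend and a robust prior (adjusted p = 0.0094, where 89 genes passed in all) and without the dimmest 50% of genes (adjusted p = 0.029, with 67 in all), and in none of the other 13 settings.

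The second Selenow probe set read 8.45, 7.80 and 8.16 in control and 7.26, 8.23 and 7.61 in knockout livers. These groups overlapped, and the difference was -0.44 (SE 0.32, interval -1.23 to 0.36, adjusted p = 0.841 over all probe sets). In pieces of liver, fewer cells of a type and less RNA per cell cannot be told apart. Of the hepatocyte markers, 6 of 6 measured were higher in the knockout livers, with mean levels per array of 15.01 to 15.35 in control and 15.52 to 15.60 in knockout livers. These markers are bright, from 14.72 for Tat to 15.83 for Apoa1, and the part of array scaling in their difference was not tested. Of the Kupffer cell and macrophage markers, 0 of 7 were higher (10.59 to 10.91 and 10.27 to 10.62). The skeletal muscle markers, a tissue rich in Selenow, were higher in 5 of 5, with 5.43 to 6.39 in control livers and 6.10 to 8.92 in knockout livers, the highest being knockout liver 2. Of these 3 marker lists 0 genes passed over all genes. In the other liver lists, 3 of 4 cholangiocyte, 2 of 5 stellate cell, 1 of 2 erythroid and 0 of 5 endothelial markers were higher, and 0 passed. Without knockout liver 2 the difference in the brightest Selenow probe set was -0.90. In the second probe set knockout liver 2, at 8.23, was the highest of the knockout livers. The part of muscle, or of any other listed cell type, in the Selenow values was not tested.

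Selenov was higher in the knockout livers, in 3 of 3 arrays, without passing. It read 7.04, 7.22 and 7.21 in control and 7.80, 7.57 and 7.52 in knockout livers. The difference was 0.47 (interval 0.12 to 0.83, SE 0.14, adjusted p = 0.585, limma). Msra also had groups without overlap, at 12.73, 12.73 and 12.79 in control and 12.89, 13.01 and 12.88 in knockout livers, and its difference was small (0.18, SE 0.12, interval -0.12 to 0.47, adjusted p = 0.773). Selenow, Selenov and Msra were the 3 of 8 genes whose liver groups did not overlap, as in 14.8% of all genes. Of these, 1 was lower (6.36% of all genes) and 2 were higher (8.42%).

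The other 5 genes had overlapping groups in liver. Selenoh read 10.00, 9.83 and 9.23 in control and 9.95, 10.08 and 9.50 in knockout livers. The difference was 0.16 (interval -0.52 to 0.84, SE 0.27, adjusted p = 0.903). Msrb1 read 12.87, 12.73 and 13.13 in control and 12.92, 13.10 and 12.95 in knockout livers. It differed by 0.08 (interval -0.31 to 0.47, SE 0.16, adjusted p = 0.916). In both genes the lowest array was a control.

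Selenoo read 10.74, 10.61 and 10.76 in control and 10.77, 10.63 and 10.82 in knockout livers, a difference of 0.04 (SE 0.13, adjusted p = 0.953). Msrb2 read 8.62, 8.41 and 8.88 in control and 8.62, 8.66 and 8.63 in knockout livers, with group means that differed by less than 0.01 (interval -0.40 to 0.40, adjusted p = 0.998). Msrb3 read 7.36, 8.16 and 8.15 in control and 7.95, 7.70 and 7.70 in knockout livers, a difference of -0.11 (SE 0.26, adjusted p = 0.933). Its second, dim probe set differed by 0.81 (SE 0.42), so the probe sets of Msrb3 disagreed in direction in liver. Over the 8 genes, 5 differences were positive (54.2% of all genes) and 3 negative, with a median of 0.06 against 0.03 over all genes.

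**Figure D3:**
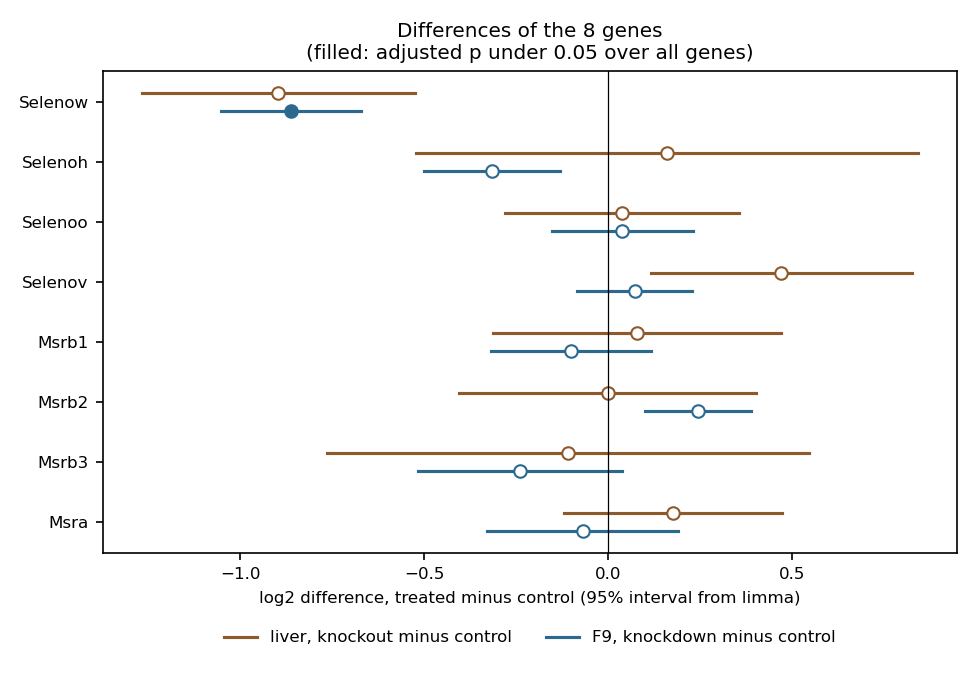
Log2 difference between treated and control arrays (horizontal axis) of each of the 8 genes in liver (brown) and F9 (blue), with 95% intervals from limma (n = 3 per group) and filled points for an adjusted p under 0.05 over all genes. Selenow lies at -0.90 in liver and -0.86 in F9, and its F9 point is the 1 filled point.

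Other genes of these pathways are given by lists. Of the stress-related selenoproteins (Gpx1, Selenow, Selenoh and Msrb1), 4 of 4 had negative differences in F9, where 46.8% of all genes had positive ones, with a median of -0.29 against -0.01 over all genes. Of these 1, Selenow, fell over all genes, as 4.64% of all genes did. Gpx1, the abundant cytosolic glutathione peroxidase, differed by -0.26 (SE 0.08, adjusted p = 0.092). It passed in 4 of 15 other settings, among them without F9 control array 1 (-0.32, adjusted p = 0.043). In liver 3 of the 4 were positive (median 0.12) and 0 passed in limma. Selenow was the 1 at an unadjusted p under 0.05 (7.28% of all genes). Of the housekeeping selenoproteins Gpx4, Txnrd1, Txnrd2 and Selenof, 3 of 4 were positive in F9 (median 0.13) and 4 of 4 in liver (median 0.15). None passed in limma. In each tissue 1 of them, Gpx4, had an unadjusted p under 0.05 (20.9% of all genes in F9, 7.28% in liver). Gpx4, which reduces lipid hydroperoxides in membranes, differed by 0.22 in F9 (SE 0.06, adjusted p = 0.077) and by 0.45 in liver (SE 0.16, adjusted p = 0.637). It passed in F9 after median centring (0.27, adjusted p = 0.040), among 5 of 15 settings.

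Of the 18 measured selenoprotein genes outside the group, 1 rose and 2 fell in F9, as 2.56% and 4.64% of all genes did. Gpx2, the gastrointestinal glutathione peroxidase, fell by 0.51 (SE 0.06, adjusted p = 0.0031), Selenop, the plasma selenium carrier, fell by 0.40 (SE 0.09, adjusted p = 0.030), and Selenos, a membrane protein of the endoplasmic reticulum, rose by 0.39 (SE 0.08, adjusted p = 0.025). Selenop did not pass without F9 control array 2 or 3 or knockdown array 1, 2 or 3 (adjusted p = 0.052 to 0.093). The call of Selenos was lost with control array 2, or any 1 knockdown array, left out (adjusted p = 0.064 to 0.101). In liver 15 of the 18 were positive (54.2% of all genes) and 0 passed (limma, 2 at an unadjusted p under 0.05, against 7.28% of all genes). The lowest difference in that list was -0.51 in F9 and -0.10 in liver, beside -0.86 and -0.90 for Selenow. Quantile normalization moved the liver differences of Gpx1 from 0.34 to 0.07, Selenop from 0.37 to 0.08 and Sephs2 from 0.16 to -0.004. It left Gpx4 at 0.38 (from 0.45), Gpx2 at 0.33 (from 0.33) and Selenos at 0.10 (from 0.12). The part of scaling in the positive liver differences was not tested.

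**Figure D4:**
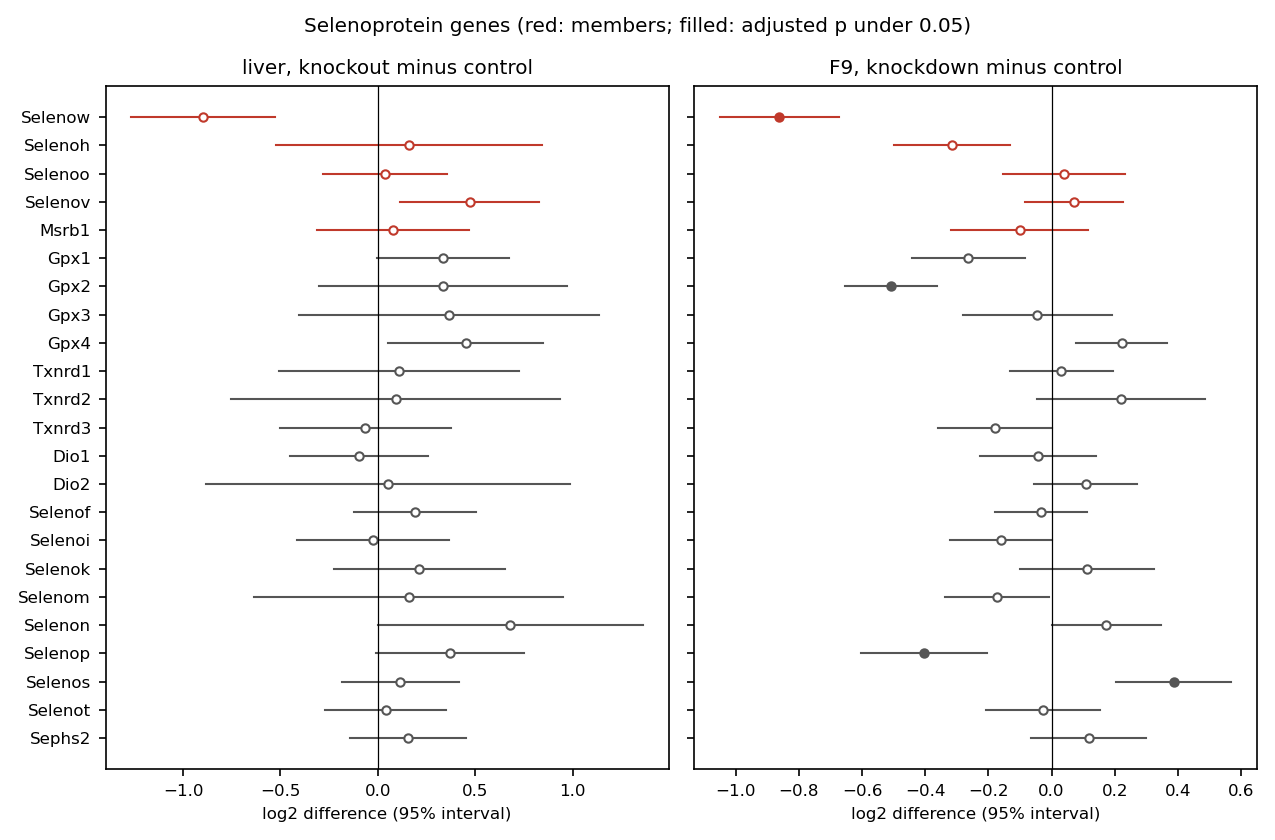
Log2 difference with 95% interval (horizontal axis, limma, n = 3 per group) of each measured selenoprotein gene in liver (left) and F9 (right), with the selenoproteins of this group in red, the others in grey and filled points for an adjusted p under 0.05 over all genes. Selenow lies farthest to the left in both panels, and the other filled points in F9 are Gpx2, Selenop and Selenos.

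Among the electron donors of the methionine sulfoxide reductases and related thiol proteins, 2 of 7 rose and 1 fell in F9, against 2.56% and 4.64% of all genes. The metallothionein genes Mt1 and Mt2, whose products bind zinc and copper and can serve as reductants, rose by 0.55 (SE 0.07, adjusted p = 0.0037) and by 0.62 (SE 0.07, adjusted p = 0.0017). Glrx, the glutaredoxin 1 gene, fell by 2.00 (SE 0.18, adjusted p = 0.00065). In liver Glrx was the 1 of 7 that passed, against 0.044% of all genes (-5.44, SE 0.25, adjusted p = 0.022). It did not pass without control liver 1, 2 or 3 or knockout liver 1 or 2 (adjusted p = 0.099 to 0.2001). Mt1 and Mt2 differed in liver by 0.47 (SE 0.40) and 0.47 (SE 0.54). Leaving out 1 knockout liver moved these values, for Mt1 to 0.29, 0.22 and 0.91 and for Mt2 to 0.09, 0.27 and 1.05 without knockout liver 1, 2 and 3, and Mt2 was at 0.29 without control liver 3.

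Of the 11 measured genes that oxidise protein methionine or run the methionine cycle, 1 fell in F9, against 4.64% of all genes. This was Mical3 (-0.55, SE 0.09, adjusted p = 0.012), which encodes a flavin monooxygenase of the family that oxidises actin. The call was lost without knockdown array 2 (adjusted p = 0.070) and without knockdown array 3 (adjusted p = 0.051). In liver 0 of the 11 passed in limma and 2 had an unadjusted p under 0.05 (7.28% of all genes). The smallest was that of Cth, the cystathionine gamma-lyase gene (0.39, SE 0.14, adjusted p = 0.640). Of the 11 measured selenocysteine incorporation factors, 1 fell in F9, against 4.64% of all genes. This was Sephs1, the target of the shRNA. Of the 11, 8 differences were negative. At an unadjusted p under 0.05 (limma), 3 were lower, Sephs1 among them (12% of all genes), and 1 was higher. In liver 0 of these factors passed in limma, and 1 had an unadjusted p under 0.05 (7.28% of all genes). This was Sepsecs, which completes selenocysteine on its tRNA (-0.32, SE 0.12, adjusted p = 0.674). Sephs2, the paralog that makes selenophosphate, differed by 0.12 in F9 (SE 0.08, adjusted p = 0.474).

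The genes whose values followed Selenow most closely were sought among 7250 named genes in the brighter 50% of both tissues. Likeness was the mean of the 2 Pearson correlations with Selenow, over the 6 liver and the 6 F9 arrays, given as a description since the group difference enters it. The 3 genes most like it were the deubiquitinase gene Mindy1 (mean r = 0.981), S100a16, which encodes a calcium-binding protein (mean r = 0.977), and the mitochondrial elongation factor gene Gfm1 (mean r = 0.971). Gfm1 fell in F9 by 0.66 (adjusted p = 0.0015), S100a16 by 0.42 (adjusted p = 0.015) and Mindy1 by 0.37 (adjusted p = 0.028). In liver the differences were -0.24, -0.65 and -0.28 and did not pass, except that S100a16 passed with an intensity trend and a robust prior (adjusted p = 0.043). Mindy1 did not pass in F9 without control array 2 or 3 or any 1 knockdown array (adjusted p up to 0.123), nor S100a16 without any 1 knockdown array (adjusted p up to 0.067).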

How the data were processed

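Probe-set values of 12 Affymetrix mouse arrays in 4 groups of 3 were used as deposited. The deposited values are on a log2 scale. Per the submitters' processing notes, affy 1.38.1 and R 3.0.1 were used, for steps they do not name, and the summary, background and normalization methods are not given in the sources used here. The series-wide table and the liver and F9 tables held identical values (largest difference 0).

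Of 45101 probe sets, 34945 name 1 gene and are no controls. The brightest probe set per gene was tested, without any filter, by the two-sided moderated test of limma 3.58.1 (lmFit, eBayes; R 4.3.3), with Benjamini-Hochberg adjustment over all 18193 genes and a threshold of 0.05. The procedure was tested on simulated data. The number of arrays limits the precision. Sequences are RefSeq's, from GRCm38.p6. The genes, lists and tests were chosen with earlier results of these data known. Besides the 8 genes, the naming rule took up to 4 genes of each list that passed, or the 1 with the smallest p, Sephs1, Sephs2 and the 3 genes most like a gene that passed. Gpx1 falls outside that rule and was chosen once its values were known.

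The settings varied were a block for the replicate number, the leaving out of each array, quantile normalization, median centring, the mean of probe sets, each probe set by itself, filters that leave out the dimmest 25% or 50%, an intensity trend with a robust prior, and array weights.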

Additional observations from a re-analysis of the deposited data

How the results depend on the processing

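Selenow in F9 kept its direction and passed in all 15 other settings (-0.91 to -0.61, adjusted p at most 0.0093). In liver it kept its direction in all 15 (-0.98 to -0.67) and passed in 2, with an intensity trend and a robust prior and without the dimmest 50% of genes, where the count of the 8 genes called in liver went from 0 to 1. In F9 that count was 1. It became 3 after quantile normalization, with the mean of probe sets, without the dimmest 25% or 50%, with an intensity trend and a robust prior together and with array weights (Selenoh and Msrb2 added), 2 after median centring (Msrb2 added), and 1 to 2 with 1 array left out. Over all genes, 8 passed in liver. That count was 0 to 3 with 1 array left out, 2 after quantile normalization and with the mean of probe sets, 5 over single probe sets, 25 without the dimmest 25%, 67 without the dimmest 50% and 89 with an intensity trend and a robust prior together. In F9, 1310 genes passed, 520 to 1451 with 1 array left out and 2285 with array weights. With a replicate block, 0 genes passed in liver and 662 in F9, and Selenow stayed at -0.90 (adjusted p = 0.615) and -0.86 (adjusted p = 0.0093). The block ended the calls of Glrx in liver (adjusted p = 0.376) and of Selenop, Selenos, Mindy1 and S100a16 in F9 (adjusted p = 0.060 to 0.089). The labels state no pairing by replicate number. Deviations of same-numbered samples correlated at -0.05 to 0.01 in liver and -0.22 to 0.01 in F9. Those of samples with other numbers correlated at -0.04 to 0.04 and at -0.22 to 0.24. With 3 arrays per group these values cannot decide whether the numbers pair the samples. The cause of these shifts was not tested.

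Small differences changed sign. With 1 array left out, liver values ranged from -0.0666 to 0.33 for Selenoh, -0.00937 to 0.0915 for Selenoo, -0.00955 to 0.19 for Msrb1, -0.11 to 0.12 for Msrb2, -0.37 to 0.0241 for Msrb3 and -0.14 to 0.0641 for Mical3, and F9 values from -0.0236 to 0.0894 for Selenoo. In liver, quantile normalization gave 0.00832 for Msrb2 and -0.00438 for Sephs2, the mean of probe sets 0.35 for Msrb3 and -0.0109 for Sephs2, and array weights 0.0204 for Msrb2. In F9 array weights gave 0.0185 for Msra. The mean of probe sets also ended the calls of Glrx in liver and of Selenos and Mindy1 in F9, and median centring that of Selenop. Genes removed by a filter on dim values have no value there. In liver the median SD within groups was 0.703 in the dimmer 50% of genes and 0.178 in the brighter 50%. In F9 these values were 0.133 and 0.085.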
